A study of Acropora aff. hyacinthus sp. E JTL-2012 with 12 samples.

Results

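The genes described here belong to the Notch, Wnt, hedgehog, transforming growth factor beta (TGF-beta) and receptor kinase signalling pathways of a reef coral, measured as RNA in fragments of 6 colonies that had each lived in 2 pools. Members were the contigs, which are assembled transcript sequences, whose deposited description held at least 1 of 16 search words naming these pathways, and 139 of 16980 contigs did so. Of the words, delta-like, smoothened and SMAD matched no description, and the SMAD proteins were found under their fly-derived name, Mothers against decapentaplegic homolog. By role the members were 34 Notch, 42 Wnt, 13 hedgehog, 13 TGF-beta and SMAD, 26 fibroblast growth factor (FGF) and epidermal growth factor receptor, and 11 low-density lipoprotein receptor-related (LRP) contigs. They carried 58 descriptions, 31 of which were shared by several contigs, and contigs of 1 description may be 1 gene, its alleles or its paralogs. A word search also takes in proteins outside the pathways, such as Notchless, a ribosome assembly factor, and LRP1, an endocytic receptor. The Patched domain-containing proteins 2 and 3 and the extracellular matrix protein ig-h3 are others.

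The animal was Acropora aff. hyacinthus, a tabletop coral. The colonies numbered 2, 7 and 75 originated in pool 300 and those numbered 40, 68 and 70 in pool 400, and each gave a fragment to each pool, so that the 4 combinations of origin and pool lived in held 3 fragments each. All 12 fragments, those kept in their pool of origin included, carried the same transplant date of 3 August 2010 and were sampled in place on 30 August 2011, close to noon, as total RNA of polyps. The labels give neither the age nor the sex of a colony and name no applied agent, and n is a number of colonies. The tests of pool effects below measure the spread of the fragment differences from coral to coral. The test of origin measures the spread between coral means.

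In Notch signalling, a membrane ligand such as Jagged or Delta on one cell activates the Notch receptor of its neighbour. Wnt ligands are secreted with the help of Wntless and bind Frizzled receptors with the co-receptor LRP6, which acts through Dishevelled to stabilise beta-catenin, and in cnidarians Wnt ligands are known for their part in setting up the oral end of the body axis. Hedgehog, TGF-beta and bone morphogenetic protein ligands, of which the last 2 kinds act through SMAD proteins, and FGF receptors are further routes by which animal cells control growth and fate.

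The deposited values were read counts divided by a size factor of each library. Recovered totals ranged between 557339 reads (coral 2 in pool 400) and 1643526 reads (coral 70 in pool 400). These same libraries stood apart on the deposited scale: the pool 400 library of coral 70 held the highest value of 47.6% of the 11903 contigs tested and that of coral 2 the lowest value of 32.8%, against 63 and 34 of the 100 members tested. Median-ratio rescaling divided the values of pool 300 libraries by 1.02 to 1.03 and those of pool 400 libraries by 0.797 (coral 2) to 1.60 (coral 70). After it the pool 400 library of coral 70 held the highest value of 12 members and 10.8% of all contigs, and that of coral 2 held the lowest value of 31 members (23.5% of all contigs) and the highest of 22 (30.5%). The deviations of paired fragments from their group means correlated over contigs at 0.394 to 0.688 in corals 2, 7, 75 and 70. The correlation was -0.22 in coral 40 and 0.063 in coral 68. Fragments of corals 40 and 68 were closer as labelled for 42.6% of all contigs, closer when exchanged for 35.6% and equal for 21.8%. Contigs absent from a fragment but with 20 or higher in its partner were also counted. As labelled there were 33 in coral 40 and 47 in coral 68. Corals 2, 7, 75 and 70 had 11, 1, 7 and 9. Coral 40 in pool 300 paired with coral 68 in pool 400 gave 14. Coral 68 in pool 300 paired with coral 40 in pool 400 gave 12. Whether the labels of corals 40 and 68 were exchanged was not tested. The part of corals 40 and 68 in the results was not tested beyond the values given with and without them.

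The tests took contigs whose deposited value averaged 10 or more in the 12 libraries, and 100 of the 139 members passed: 18 Notch, 37 Wnt, 9 hedgehog, 12 TGF-beta and SMAD, 17 FGF and 7 LRP contigs. The other 39 had means of 3.04 to 9.84, 21 of them had no read in at least 1 library, and 11 reached 20 in some library. They include all 3 contigs of Notch homolog 3, both of Wnt-7b, the single ones of Wnt-16, Sonic hedgehog and jagged-1b, and both epidermal growth factor receptor substrates, so that no contig named for the epidermal growth factor receptor was tested. Read counts were not divided by length, so values are compared between libraries and not between contigs.

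The first question was whether a coral's signalling genes differed with the pool it lived in. Over the 6 corals none of the 100 members passed the test, which was limma with Benjamini-Hochberg adjusted p under 0.05 and the coral as a block, where 0.344% of all contigs tested were called. At an unadjusted p under 0.05 there were 6 members, against 4.87% of all contigs. By edgeR's quasi-likelihood test on the recovered reads 0 members had an adjusted p under 0.05, against 0.0672% of all contigs, and 7 had an unadjusted one, against 5.5%. The median difference of the tested members, pool 300 minus pool 400 on the log2(value + 1) scale, was 0.01, beside 0.03 over all contigs. For 61 members the 95% interval of the difference lay within 1 log2 unit of 0 on either side, and for the other 39 a difference of that size was within the interval.

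**Figure D1:**
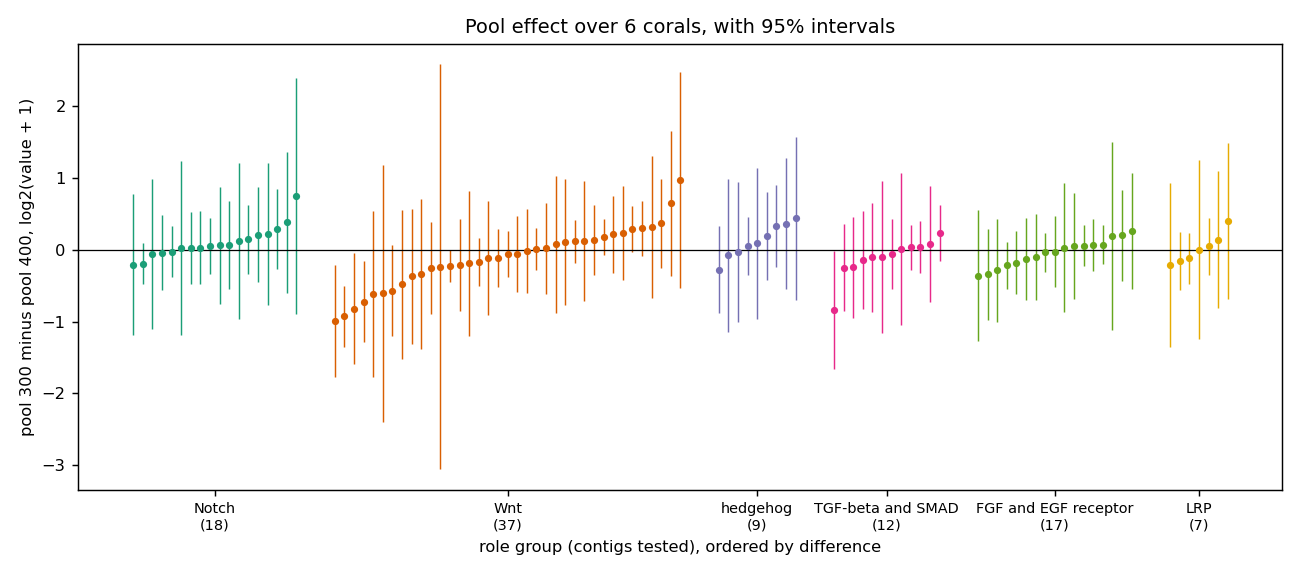
Each point is 1 of the 100 tested contigs, placed by role group on the horizontal axis and by its log2(value + 1) difference between the fragments in pool 300 and pool 400 on the vertical axis, with the 95% interval of the limma fit over 6 corals. The differences lie between -0.99 and 0.98, and the lowest and the highest both belong to the Wnt group.

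Of the 6 members at an unadjusted p under 0.05, all were lower in pool 300 and 5 belonged to the Wnt group. Among all contigs at such a p, 347 were lower and 233 higher in pool 300. The Wnt group held 37 of the 100 tested members. Wnt-2b (contig112007), a secreted Wnt ligand, had the smallest p of the members. In pool 300 its values were 39.1, 61.0 and 56.3 in corals 2, 7 and 75 and 32.8, 26.5 and 41.9 in corals 40, 68 and 70. In pool 400 they were 84.4, 70.6 and 111 in corals 2, 7 and 75 and 86.8, 41.2 and 105 in corals 40, 68 and 70. The fragment in pool 300 was the lower one in all 6 corals, although the groups overlapped, since coral 68 was low in both pools. The means were 42.9 ± 13.4 and 83.2 ± 25.2 (SD, n = 6), and the difference of -0.93 (SE 0.19, 95% interval -1.35 to -0.51) did not pass, with a limma adjusted p of 0.0905 and an edgeR adjusted p of 0.0959. Over all alternatives the adjusted p of this contig ran from 0.0778 to 0.361 and the difference from -1.07 to -0.84.

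The other Wnt-2b contig (contig145530) gave 29.0, 32.4 and 11.1 in corals 2, 7 and 75 and 68, 26.5 and 36.2 in corals 40, 68 and 70 in pool 300. In pool 400 it gave 46.4, 42.7 and 104 in corals 2, 7 and 75 and 67.8, 44.0 and 78.3 in corals 40, 68 and 70. In 5 corals the pool 300 fragment had the lower value, coral 40 had nearly the same value in both pools, and coral 75 alone differed by -3.11. The difference over 6 corals was -0.99 (SE 0.35), with a limma adjusted p of 0.692, and it was -0.57 without coral 75.

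Wnt-8b (contig55873), also a ligand, had values of 76.7, 75.3 and 58.3 in the pool 300 fragments of corals 2, 7 and 75 and of 45.7, 110 and 62.8 in those of corals 40, 68 and 70. In pool 400 the values were 161, 115 and 104 in corals 2, 7 and 75 and 29.7, 177 and 220 in corals 40, 68 and 70. Coral 40 was the lowest coral in both pools and the only one with more in pool 300. The difference was -0.73 (SE 0.25) with a limma adjusted p of 0.671. Over the ligands, 8 of 11 Wnt contigs were tested (Wnt-2b, Wnt-4 and Wnt-8b with 2 contigs each, Wnt-5a and Wnt-8a with 1). Of their differences 7 were below 0 and 1 above, and their median was -0.20, from -0.99 to 0.08. In the whole Wnt group 21 of 37 differences were below 0, beside 44.4% over all contigs. Wnt-5a (contig181209) ranged from 111 to 239 in pool 300 and from 134 to 326 in pool 400, with full overlap.

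**Figure D2:**
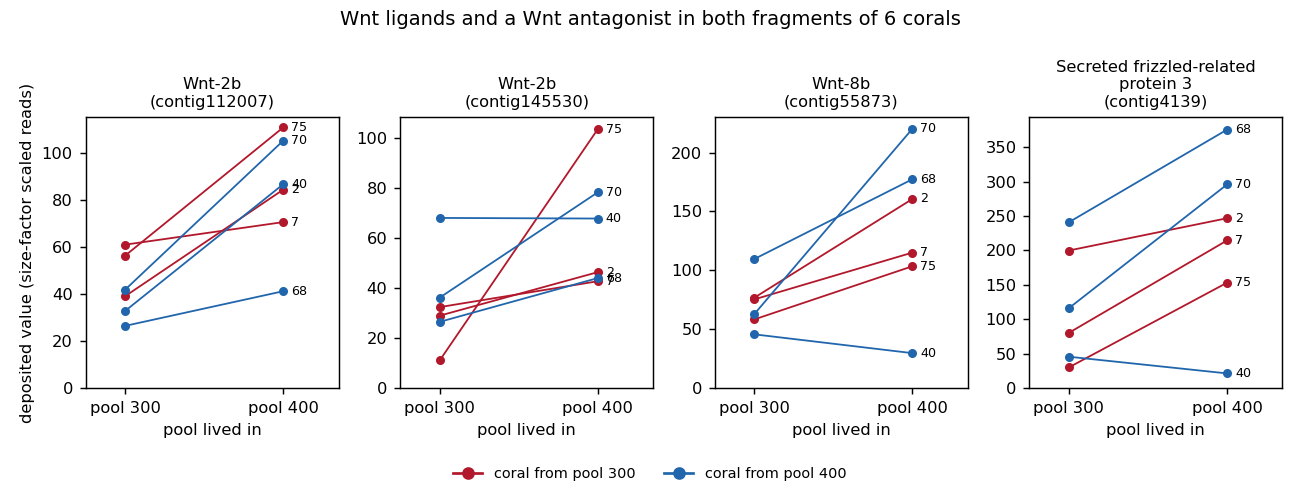
Deposited values (vertical axes, reads scaled by size factor) of 4 Wnt pathway contigs in the fragments in pool 300 and pool 400 (horizontal axes), where a line joins the fragments of 1 coral, numbered at its right end. Wnt-2b (contig112007) is lower in pool 300 along all 6 lines, and coral 40 is the exception in the other 3 contigs.

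Secreted frizzled-related protein 3 (contig4139), a soluble protein of the family that binds Wnt ligands, had a larger spread between coral means, with an SD of 1.20 on the log2(value + 1) scale, than the 0.42 of Wnt-2b (contig112007). Its pool 300 values were 200, 80.3 and 30.2 in corals 2, 7 and 75 and 45.7, 241 and 116 in corals 40, 68 and 70. Its pool 400 values were 247, 214 and 153 in corals 2, 7 and 75 and 21.5, 375 and 296 in corals 40, 68 and 70. As for Wnt-8b, coral 40 was alone in having more in pool 300, and the groups overlapped widely. The difference was -0.82 (SE 0.35, limma adjusted p = 0.970).

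Of the Frizzled receptors, 16 of 17 contigs were tested, 10 with a difference below 0 and 6 above, with a median of -0.20. Over all contigs tested, 44.4% of the differences were below 0. Frizzled-1 (contig147502) had 468 to 992 with a median of 685 in pool 300 and 583 to 1220 with a median of 701 in pool 400. It was lower in pool 300 in all corals but coral 70, by -0.23 (SE 0.10), with a limma adjusted p of 0.9996. Inside the cell, the 4 contigs of Dishevelled DVL-3 had differences of -0.01 to 0.30 and the 3 of beta-catenin 0.12 to 0.22. Dishevelled DVL-3 (contig115433) was the only member higher in pool 300 in all 6 corals on the deposited scale, at 127 against 113, 52.9 against 49.7 and 86.5 against 57.0 in corals 2, 7 and 75. In corals 40, 68 and 70 it was 50.4 against 37.2, 80.7 against 70.1 and 71.4 against 58.2, a difference of 0.30 (SE 0.14). Of all contigs tested, 1.82% were higher in pool 300 in all 6 corals and 1.76% lower, against 1 member each. After rescaling DVL-3 (contig115433) was lower in pool 300 in corals 2 and 7, and the 1 member higher in all 6 was a Notch homolog (contig143462), against 1.54% of all contigs. The 5 members then lower in all 6, against 1.86%, were both Wnt-2b contigs, Frizzled-8 (contig106093), SMAD6 (contig4971) and an FGF receptor (contig147112).

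Wntless (contig151511), the carrier that brings Wnt ligands to the cell surface, ranged from 135 to 219 with a median of 162 in pool 300 and from 114 to 230 with a median of 195 in pool 400. Its difference was -0.06, with a 95% interval of -0.38 to 0.26. Wnt inhibitory factor 1 (contig210347), a secreted inhibitor, ranged from 123 to 345 and from 164 to 290, with an interval of -0.36 to 0.63. The most read beta-catenin contig (contig148160) ranged from 261 to 518 and from 237 to 571, with an interval of -0.07 to 0.43. The 3 contigs of the co-receptor LRP6 had few reads, with medians of 7.74 to 20.4 in pool 300 and 11.4 to 19.3 in pool 400, and their intervals reached 1.09, 1.49 and -1.35 at the bound farthest from 0.

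In the TGF-beta group SMAD6 (contig4971), an inhibitory SMAD, held the remaining unadjusted p under 0.05. It had 10.1, 11.2 and 11.1 in corals 2, 7 and 75 and 9.38, 10.8 and 5.71 in corals 40, 68 and 70 in pool 300, and 9.94 to 36.0 with a median of 15.7 in pool 400. Coral 70 differed most, by -2.46, and coral 2 hardly, by 0.03. The difference was -0.84 (SE 0.37, limma adjusted p = 0.9996), and all 3 SMAD6 contigs lay between -0.84 and -0.06.

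The SMAD proteins that carry the signal to the nucleus had small differences with overlapping ranges. SMAD5 (contig149706), which acts for bone morphogenetic proteins, ranged from 141 to 211 in pool 300 and from 132 to 218 in pool 400, with an interval of -0.28 to 0.35. SMAD2 (contig169260), which acts for TGF-beta and activin, ranged from 63.4 to 98.0 and from 63.6 to 133, with an interval of -0.33 to 0.40. SMAD4 (contig147436), the partner shared by both, had few reads, with medians of 12.9 and 11 and an interval of -1.04 to 1.07.

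The Notch, hedgehog, FGF and LRP groups held no member at an unadjusted p under 0.05, and their medians were 0.06, 0.09, -0.02 and 0.00, beside -0.06 for the Wnt and -0.08 for the TGF-beta group. Jagged-1, the Notch ligand, had 189 to 284 in pool 300 and 148 to 317 in pool 400 for contig119782. The other jagged-1 contig (contig152409) had 92.6 to 158 and 81.0 to 171. Both ranges overlapped throughout. The 9 tested Notch receptor contigs had differences of -0.04 to 0.75, and the 16 FGF receptor contigs, 1 of them of FGF receptor-like 1, which lacks the tyrosine kinase domain of the others, had differences of -0.36 to 0.26 with a median of 0.00. The Notch-regulated ankyrin repeat protein (contig127535), known in vertebrates as a Notch target that feeds back on the pathway, had a median of 25.6 in pool 300 and 17.4 in pool 400, with ranges of 13.1 to 30.5 and 12.4 to 37.4. The most read FGF receptor contig (contig153342) had 169 to 410 in pool 300 and 223 to 421 in pool 400. FGF22 (contig199537), the single FGF ligand found, had 13.7 to 57.9 in pool 300 and 11.6 to 61.3 in pool 400.

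The fragments' differences were also fitted in the corals of each origin, 3 corals each. In corals from pool 300, 0 members passed the limma test, against 0.554% of all contigs, and 6 had an unadjusted p under 0.05, against 4.71%. The edgeR test called 0 members, against 0.353%, and 7 at an unadjusted p, against 4.54%. In corals from pool 400, 0 members and 0% of all contigs passed limma and 0 members and 0% passed edgeR, with 1 member (2.05% of all contigs) and 3 members (2.72%) at an unadjusted p. The members' median was 0.17 in the former corals and -0.22 in the latter, beside 0.13 and -0.09 over all contigs. After rescaling these medians were 0.02 and -0.10, beside -0.02 and 0.03, so the split of directions between the origins moved with the scaling.

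In the corals from pool 300, Wnt-8b (contig55873), both Wnt-2b contigs and secreted frizzled-related protein 3 (contig4139) were lower in pool 300 in all 3 corals, by -0.83, -1.39 (contig145530), -0.75 (contig112007) and -1.34. In the corals from pool 400 the same contigs differed by -0.63, -0.60, -1.10 and -0.31. The other tested contigs of these descriptions went the other way in corals from pool 300, Wnt-8b (contig13913) by 0.49, higher in all 3 corals, and secreted frizzled-related protein 3 (contig208410) by 0.31, and in corals from pool 400 they differed by -0.33 and 0.32. Wnt-2b (contig112007) was the member with an unadjusted p under 0.05 in the latter corals, with a limma adjusted p of 0.916. The smallest limma adjusted p of a member in the former corals was 0.522, of a Frizzled-5 contig.

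Frizzled-5 (contig158811) went the other way in corals from pool 300. Corals 2, 7 and 75 had 18.8, 28.0 and 16.1 in pool 300 and 0, 9.59 and 5.28 in pool 400, without overlap. Corals 40, 68 and 70 had 47.5, 3.61 and 29.5 in pool 300 and 20.7, 22 and 33.9 in pool 400, with overlap. The fitted difference was 2.40 (SE 0.75, limma adjusted p = 0.522) in the former corals and -0.45 in the latter, and in the former it was 1.45 without coral 2, whose pool 400 library had the fewest reads, and 1.49 with a pseudocount of 5. A second Frizzled-5 contig (contig144897) had 36.2, 62.3 and 64.4 in corals 2, 7 and 75 in pool 300 and 3.31, 34.0 and 37.0 in pool 400. Its difference in these corals was 1.58 (SE 0.51), and 0.82 without coral 2. The contig contig169617 of the same description had 55.0, 72.9 and 86.5 in pool 300 and 28.1, 55.8 and 57.0 in pool 400 in these corals, and contig77889 had 11.6, 21.8 and 0 and 11.6, 27.9 and 5.28. Neither had an unadjusted p under 0.05.

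Whether the pool mattered differently for the corals of each origin was tested as the difference between those effects, origin 300 minus origin 400. No member passed limma, against 0% of all contigs, and none passed edgeR, against 0.0084%. At an unadjusted p under 0.05 there were 6 members by limma, against 1.77% of all contigs, and 4 by edgeR, against 1.79%. The median was 0.34 over the members and 0.20 over all contigs, and 0.09 and -0.06 after rescaling. The intervals were wide, and only 17 members had one within 1 log2 unit of 0.

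A Notch homolog (contig150693), a receptor of the pathway, had a difference between origins of 2.44 (SE 0.83, limma adjusted p = 0.9996). Corals 2, 7 and 75 had 34.8, 71.0 and 7.04 in pool 300 and 9.94, 18.3 and 6.34 in pool 400. Corals 40, 68 and 70 had 11.7, 1.20 and 18.1 in pool 300 and 51.2, 6.87 and 14.5 in pool 400. Coral 75 and coral 70 differed little, and without corals 40 and 68 the difference was 0.95. Notch homolog 1 (contig68248) had 10.1, 28.0 and 23.1 in pool 300 and 1.66, 8.72 and 26.4 in pool 400 for corals 2, 7 and 75. For corals 40, 68 and 70 it had 12.3, 10.8 and 11.4 in pool 300 and 12.4, 22 and 40.2 in pool 400, a difference between origins of 2.05 (SE 0.79).

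Jagged-1 (contig119782) had 232, 208 and 284 in pool 300 and 215, 148 and 215 in pool 400 in corals 2, 7 and 75. In corals 40, 68 and 70 it had 190, 189 and 257 in pool 300 and 317, 230 and 280 in pool 400. On the deposited scale the pool 300 fragment was the higher one in the 3 corals from pool 300 and the lower one in the 3 from pool 400, and after rescaling the directions of corals 2 (227 and 270) and 70 (250 and 175) turned. The difference was 0.71 (SE 0.25) on the deposited scale and 0.44 after rescaling, with a limma adjusted p of 0.9996 and 0.995. The matrix protein ig-h3 (contig202303) had 161, 163 and 143 in pool 300 and 56.3, 140 and 177 in pool 400 in corals 2, 7 and 75. It had 107, 96.3 and 85.6 in pool 300 and 105, 172 and 234 in pool 400 in corals 40, 68 and 70, a difference of 1.22 (SE 0.50). Both Frizzled-5 contigs made up the rest of the 6 members, at 2.85 and 1.87.

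**Figure D3:**
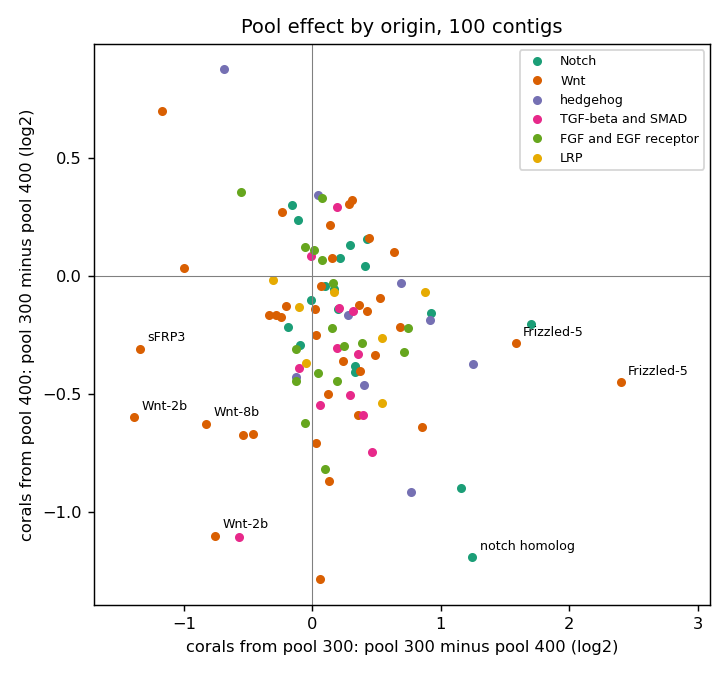
Each point is 1 of the 100 tested contigs, coloured by role, with its log2(value + 1) difference between pool 300 and pool 400 in corals from pool 300 (horizontal axis, n = 3) and in corals from pool 400 (vertical axis, n = 3). The named Wnt-2b, Wnt-8b (contig55873) and secreted frizzled-related protein 3 (contig4139) points lie below 0 on both axes, while the named Frizzled-5 points (contig158811 and contig144897) lie right of 0 and below 0.

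Corals were compared by pool of origin on the mean of each coral's fragments, 3 against 3. Again 0 members passed limma, against 0.0336% of all contigs, and 2 had an unadjusted p under 0.05, against 2.64%. By edgeR the counts were 0, against 0.0252%, and 3, against 2.81%. No member had all 6 libraries of one origin above those of the other, against 0.143% of contigs higher and 0.302% lower in origin 300. The members' median was -0.17, beside -0.10 over all contigs, and -0.03 and 0.03 after rescaling.

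Desert hedgehog A (contig178657), a secreted hedgehog ligand, had the smallest p. Coral 2 had 31.9 in pool 300 and 19.9 in pool 400, coral 7 had 38.0 and 27.0, and coral 75 had 114 and 139. Coral 40 had 120 and 100, coral 68 had 93.9 and 122, and coral 70 had 181 and 235. Corals 2 and 7 were low in both pools, and coral 75 lay among the corals from pool 400. The coral means were 61.6 ± 56.3 for origin 300 and 142 ± 57.1 for origin 400 (SD, n = 3), a difference of -1.50 (SE 0.53, limma adjusted p = 0.998). Without coral 75 it was -2.20, with an adjusted p of 0.096. The Protein hedgehog contig (contig181542) had 8.69 to 32.5 in pool 300 and 4.12 to 29.6 in pool 400.

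The Notch contigs contig151290 and contig152133, picked after their values were seen, had levels that belonged to particular corals more than to a pool or an origin. A Notch receptor contig (contig151290) had 59.8 and 25.3 in the pool 300 and pool 400 fragments of coral 7 and 186 and 152 in those of coral 70, and 0 to 2.90 in the other 8 libraries. A Notch homolog contig (contig152133) had 251 and 162 in coral 2 and 28.9 to 75.6 in the others. In both contigs both fragments of these corals lay above all libraries of the other corals. Coral 2 also had the highest values in both fragments for members that are not receptors. Among them were Notchless (contig118128), SMAD5 (contig213226) and beta-catenin (contig148160). The share of all contigs with such levels is not given here.

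Frizzled-1 showed another pattern across its 3 contigs. The contig contig147502 was read in all 12 libraries, from 468 to 1220. The contig contig191317 had 104 in the pool 300 fragment of coral 40 and 192 in the pool 400 fragment of coral 68, and 0 to 4.97 in the other 10 libraries, their own partners included. The contig contig98644 had 45.1 and 71.5 in the same libraries and 0 to 12.5 in the rest, which gave it an origin difference of -1.72 (SE 0.76, limma adjusted p = 0.998), or -0.90 without corals 40 and 68. These levels go across the coral labels. Other members went with them: secreted frizzled-related protein 3 had 241 and 375 in the fragments of coral 68 and 45.7 and 21.5 in those of coral 40. Over the 100 members, fragments of corals 40 and 68 were closer as labelled for 43, closer when exchanged for 35 and equal for 22, beside 42.6%, 35.6% and 21.8% of all contigs.

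**Figure D4:**
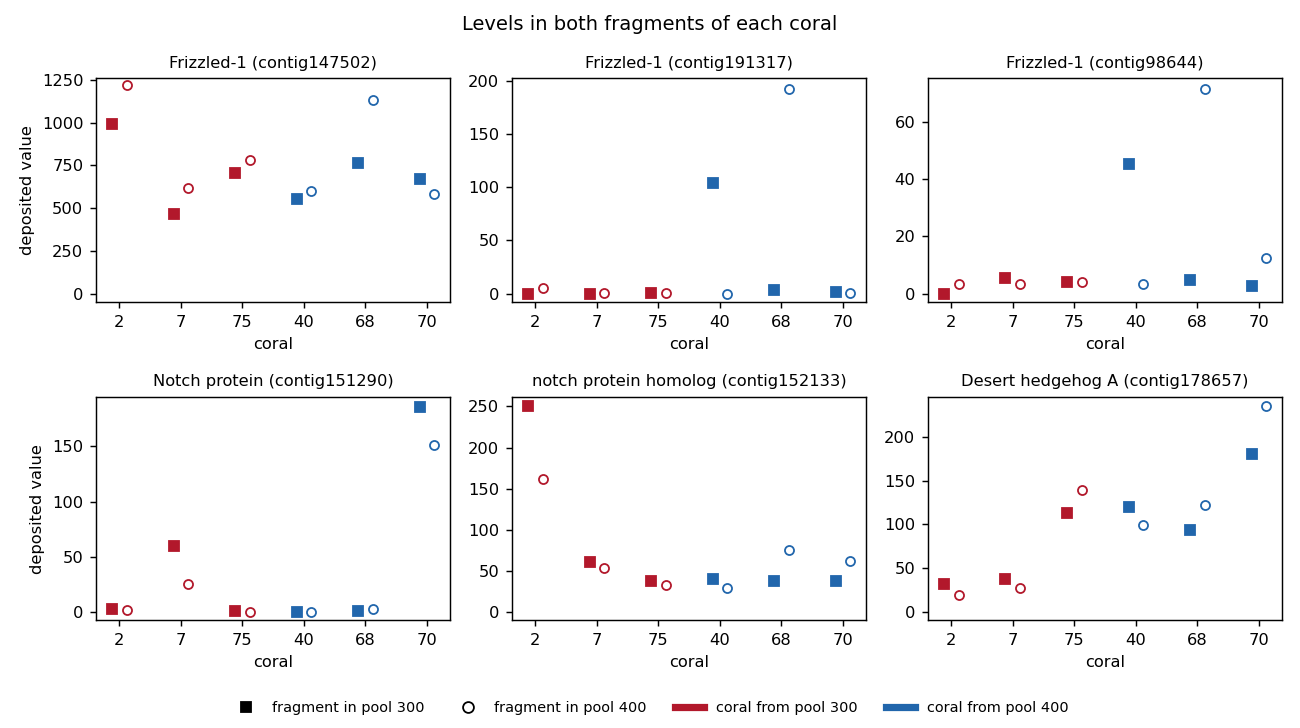
Deposited values (vertical axes) of 6 contigs in the pool 300 fragment (filled squares) and pool 400 fragment (open circles) of each coral (horizontal axes), coloured by pool of origin. Notch contig151290 is high in both fragments of corals 7 and 70, and Frizzled-1 contig191317 is high, at 104 and 192, in 1 fragment each of corals 40 and 68.

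The spread between coral means exceeded the spread within corals for 39 of the 100 members, beside 49.9% of all contigs. The median SDs on the log2(value + 1) scale were 0.46 between and 0.53 within corals over the members and 0.42 and 0.43 over all contigs. The SD between corals was taken on means of each coral's fragments. The SD within corals was that of single fragments, with any pool difference left in. A smaller SD between corals therefore does not mean that corals differed less than their fragments. The count of members with more spread between corals was 27 without coral 2 and 44 without coral 70, and 46 after rescaling. The shares of all contigs under these settings are not given here, so these counts cannot be set beside them. By coral, the median fragment difference of the members was 0.42, 0.32 and -0.27 in corals 2, 7 and 75 and 0.30, -0.07 and -0.79 in corals 40, 68 and 70. Over all contigs it was 0.25, 0.21, -0.13, 0.17, 0.04 and -0.53 in the same order, and after rescaling the members' medians lay between -0.16 and 0.08. In coral 70, 89 of the 100 members were lower in pool 300, beside 78.8% of all contigs, and 57 after rescaling, beside 45.1%.

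**Figure D5:**
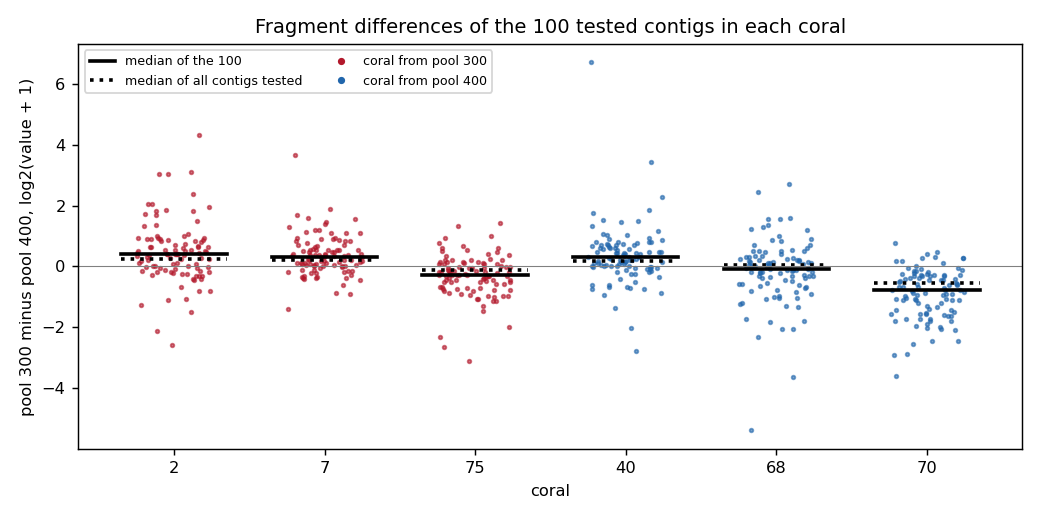
Each point is 1 of the 100 tested contigs, with its log2(value + 1) difference between the pool 300 and pool 400 fragments of a coral (vertical axis) for each of the 6 corals (horizontal axis). Solid bars are the medians of these contigs, from -0.79 in coral 70 to 0.42 in coral 2, and dotted bars those of all contigs tested, from -0.53 to 0.25.

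Genes next to the members in their pathways were read from lists of other description words. None of the tested contigs was called by limma in any of the 5 comparisons among 42 of 54 Notch neighbours, 25 of 33 Wnt, 13 of 21 hedgehog, 42 of 55 TGF-beta and 41 of 49 growth factor neighbours. For the pool effect over 6 corals, 2, 2, 0, 5 and 1 of them had an unadjusted limma p under 0.05, against 4.87% of all contigs. By edgeR 0 were called, against 0.0672%. Growth/differentiation factor 8 (contig193089), a TGF-beta family ligand that restrains muscle growth in mammals, had the smallest p, with a difference of -1.21 (SE 0.27, limma adjusted p = 0.123). R-spondin-3 (contig175615), which strengthens Wnt signals in vertebrates, differed by 0.74 (SE 0.30). The transcription factor HES-1, a target of Notch, differed by 0.86 for contig168077 and by -0.30 for contig155230.

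Fewer cells of a type and less RNA per cell cannot be told apart in these samples of whole polyps. Of the marker lists for other cells, none was at 0 in all libraries. Muscle markers summed to 3660 to 4210 in pool 300 and 2580 to 4530 in pool 400 (24 of 35 tested, 5 with an unadjusted p under 0.05, all higher in pool 300), and markers of cilia and sperm to 2730 to 2900 and 2460 to 4580 (50 of 75 tested, 3, all lower). Of all contigs tested, 4.87% had such a p. Among 18 tested markers of calicoblastic skeleton cells 1 had one, lower in pool 300. None had one among 20 markers of oocytes and germ line, 2 of cnidocytes and 2 of algal photosynthesis. These counts are for the pool effect over 6 corals. For the origin effect, 1 algal marker, with a difference of 3.38, and 2 calicoblastic markers had an unadjusted limma p under 0.05. They were higher in corals from pool 300, and none was called by limma. Of all contigs, 2.64% had such a p for origin. The part of these cell types in the differences was not tested.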

How the data were processed

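RNA of 12 coral fragments was sequenced, 6 corals in each of 2 pools. The deposited signal values are read counts divided by a size factor of each library: all but 1 value were whole multiples of what 1 read was worth (0.586 to 1.66, tolerance 0.01), and these reads were recovered. The submitters' processing notes list BWA and DESeq, whose versions and uses are not given in the sources used here. Per the file headers, the pool 400 columns were adjusted, in a way not given in the sources used here. Contigs carry the authors' descriptions. The table's columns of group means and SDs were left aside, and sequences and positions were not used here.

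Values were tested as log2(value + 1), which understates the change of low contigs, with limma 3.58.1 in R 4.3.3, a variance trend and Benjamini-Hochberg adjustment over 11903 contigs with a mean of at least 10. The coral was a block for pool effects, because both fragments came from 1 colony, and origin was tested on coral means. The fits were tested on simulated data. Alternatives were edgeR 4.0.16 on recovered reads (values not whole were read as 0), median-ratio rescaling, pseudocounts of 0.5 and 5, minimum means of 1 and 50, other blocks, and each coral left out. Omission of corals 40 and 68 together was added after seeing the data.

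The members and lists were chosen with earlier results of these data known, and list words were trimmed where they matched inside other words. Named contigs were the 3 of smallest p in each role group and comparison, the one of highest mean in a role group, and ligands, Frizzled receptors, Dishevelled, beta-catenin and SMADs for their levels. Contigs named for coral-specific levels, the Notch receptors among them, and neighbours were chosen after their values were seen.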

Additional observations from a re-analysis of the deposited data

Results flagged for a closer look

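Wnt-2b (contig145530) in coral 75 differed by -3.11 on the log2(value + 1) scale between its fragments, at 11.1 in pool 300 and 104 in pool 400, which lay far from the other 5 corals, whose differences ran from -1.09 in coral 70 to 0.01 in coral 40. It was the only one of 18 sets of coral differences examined with such a gap, and chance gives about 1 in 20.

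Jagged-1 (contig119782) was higher in pool 300 in all 3 corals from pool 300 and lower in all 3 from pool 400 on the deposited scale, but not after rescaling, which turned corals 2 and 70. The difference between origins was 0.71 (limma adjusted p = 0.9996). FGF receptor 3 (contig209195) had the same opposite directions on the deposited scale, with 164, 144 and 164 in pool 300 and 136, 133 and 156 in pool 400 for corals 2, 7 and 75, and 135, 153 and 150 and 170, 155 and 186 for corals 40, 68 and 70. Its difference between origins was 0.37 (limma adjusted p = 0.9996), and 0.10 after rescaling, which turned the directions of corals 2, 7 and 70.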

How the results depend on the processing

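No member passed in any of the 5 comparisons under any of the 15 alternatives. The number at an unadjusted p under 0.05 ran from 3 to 7 for the pool effect over 6 corals, from 2 to 10 in corals from pool 300 and from 1 to 5 for origin. The shares of all contigs at such a p under the alternatives are not given here, so these counts cannot be set beside them. No range is given for corals from pool 400 or for the difference between origins. Without corals 40 and 68 together, coral 70 alone stands for its origin there and is assumed to vary like the others. The numbers pair the fragments by colony, and the replicate block moved no call: without it Wnt-2b (contig112007) had the same difference of -0.93 with a limma adjusted p of 0.317, and exchanging the pool 400 partners of corals 40 and 68 in it gave 0.13. Members with more spread between than within corals numbered 27 to 44 when 1 coral was left out, and the shares of all contigs there are not given here.

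Of 90 results for named members, 76 kept their direction under every alternative that gave a value, and 14 did not. A minimum mean of 50 gave no value for members below it. When 1 coral was left out, the pool effect over 6 corals ran from -0.30 to 0.0025 for FGF receptor 1 (contig151860) and from -0.41 to 0.0076 for Patched domain-containing 3 (contig69829). In corals from pool 300 it ran from -0.10 to 1.06 for LRP6 (contig104240) and from -0.048 to 0.86 for ig-h3 (contig202303). In corals from pool 400 it ran from -1.40 to 0.049 for an FGF receptor (contig153507), from -1.68 to 0.094 for LRP4 (contig181962) and from -0.27 to 0.032 for LRP8 (contig147828). There it also ran from -0.99 to 0.50 for LRP6 (contig72844), from -0.041 to 1.66 for Protein hedgehog (contig181542) and from -0.84 to 0.21 for Patched domain-containing 3. Without corals 40 and 68 together it was -0.68 for Protein hedgehog and 0.30 for a Notch homolog (contig150693). The origin effect ran from -0.61 to 0.44 for LRP6 (contig72844), from -0.67 to 0.26 for LRP6 (contig131359) and from -0.87 to 0.12 for SMAD6 (contig4045), and by edgeR it was 0.023 for contig72844. The causes were not tested. The minimum mean left 39 members untested, and for 39 of the tested ones the 95% interval of the pool effect over 6 corals reached 1 log2 unit.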
